A study of Mus musculus with 2 samples.

Results

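Mir22, Mir132, Mir212, Mir210, Mir328, Mir101a and Mir101b are 7 microRNA (miRNA) genes best known from the stressed adult heart, where they have been tied to muscle growth, altered rhythm, scarring or lack of oxygen. They were picked by name, for this published background, out of the 1973 miRNA genes counted in small RNA sequencing of hearts that came from B6NCrl strain mouse embryos at embryonic day 14.5. The series holds 1 group of 2 libraries, which the labels number as biological replicates 1 (collected on 15 July 2014) and 2 (17 July 2014). The animals carried no labelled mutation or treatment, and there is no other stage, tissue or adult heart to compare with. Each library is described as 1 heart, whereas its sex is given as a pool of males and females, and nothing in the labels resolves this. The values below therefore give the share of each miRNA among the reads assigned to miRNA genes in these 2 libraries, not its amount in the heart. The spread between the libraries is the only error, and it may be partly technical.

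A miRNA gene is transcribed into a long primary RNA, from which a hairpin is cut and then trimmed to a mature strand of about the length of a sequencing read in such libraries. The mature strand guides the silencing complex to messenger RNAs that pair with its seed, the bases 2 to 8 from its 5′ end, so miRNAs with the same seed share many targets. In mouse heart, miR-22 promotes hypertrophic growth of muscle cells, and miR-132 and miR-212 do so by repressing Foxo3, a transcription factor that restrains growth. miR-210 is switched on by the hypoxia factor HIF-1 and lowers mitochondrial respiration through the iron-sulfur cluster scaffold Iscu. miR-328 has been linked to atrial fibrillation through calcium channel subunits, in dog and human atria and in mice made to overexpress it. miR-101 limits scarring after infarction in rat and represses the histone methyltransferase Ezh2 in many cell types.

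Mature sequences were found in RefSeq (build GRCm38.p6) for 6 of the 7 genes, all but Mir328. The 3p arms are shown because they are the arms named in most work on these miRNAs, and because their seeds sort the set into families. The seed stands in capitals.
miR-22-3p: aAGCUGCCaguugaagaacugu
miR-132-3p: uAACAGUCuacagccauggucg
miR-212-3p: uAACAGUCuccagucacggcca
miR-210-3p: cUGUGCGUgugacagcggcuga
miR-101a-3p: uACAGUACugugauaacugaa
miR-101b-3p: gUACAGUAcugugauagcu

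miR-132-3p and miR-212-3p shared the seed AACAGUC and 17 of 22 bases. Counted from 1 at the 5′ end of miR-132-3p, they differed by A10C, C14U, U17C, U20C and G22A, all outside the seed. Among the 1738 mature miRNAs in the RefSeq table no other had this seed, and none outside the set had the seed of any other arm listed above. miR-101a-3p matched the Mir101b hairpin at 20 of 21 bases, the difference being A16G counted from the 5′ end of miR-101a-3p. RefSeq starts miR-101b-3p 1 base earlier in the common sequence, so the annotated seeds of the miR-101 arms are shifted by 1 base although the underlying bases are the same. The deposited counts are given per gene, so they do not say which arm, or which end of it, was read.

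The loci were placed with the GENCODE M21 annotation of the mouse build mm10. Mir212 (chromosome 11, 75173388 to 75173478) and Mir132 (chromosome 11, 75173682 to 75173747) lie 203 bases apart on the plus strand, within an intron of the noncoding gene 1700016P03Rik. Mir22 (chromosome 11, 75463716 to 75463810) lies 289968 bases further along the same strand, in an exon of both transcripts of its noncoding host Mir22hg and in an exon of 1 of 4 transcripts of Tlcd2. Mir101b (chromosome 19, 29135279 to 29135375) lies in an intron of Rcl1, and Mir101a (chromosome 4, 101346945 to 101347027) in an exon of the noncoding gene E130102H24Rik. Mir328 (chromosome 8, 105308364 to 105308460) lies opposite an exon of Elmo3, on the other strand. Mir210 (chromosome 7, 141221384 to 141221493) overlaps no other annotated gene.

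The libraries were similar in depth. Replicate 1 had 4327424 reads and replicate 2 had 3839984 reads on miRNA genes of the counted strand, which is the total behind each CPM (counts scaled to 1000000 of those reads). Levels were not divided by length, since the mature arms of the 6 genes with a sequence are 19 to 23 bases long. Reads that map to several places, 30.6% and 30.1% of all reads in replicates 1 and 2, are kept apart from the genes. The libraries held the heart muscle miRNAs Mir208b at 66568 ± 359 CPM, Mir208a at 7962 ± 2009 and Mir499 at 3023 ± 179 (SD, n = 2), with the smooth muscle markers Mir143 and Mir145a summing to 75796 ± 15984 CPM and the endothelial Mir126a at 72473 ± 3594. Of other muscle miRNAs, Mir1a-1 was at 2.80 ± 0.283 CPM, Mir133a-1 at 2.95 ± 0.249 and Mir133a-2 at 0.882 ± 0.594, with 2 to 13 counts each. All 5 measured copies of the neuronal miR-124 and miR-9 had 0 counts, an upper limit for assigned reads of 0.693 and 0.781 CPM in replicates 1 and 2 (3 counts, counting error only). The miR-126, miR-1, miR-133, miR-124 and miR-9 genes just named share stretches of at least 18 bases with other hairpins, so that reads of theirs may lie among those that map to several places. The 7 epithelial markers counted were all higher in replicate 2, with sums of 667 and 1142 CPM in replicates 1 and 2. The 2 erythroid markers were lower, with sums of 1184 and 489 CPM. Most of this was Mir451a, at 1090 and 415 CPM, which also shares at least 18 bases with another hairpin. Mir144 was at 94.3 and 73.7 CPM. The 2 white blood cell markers counted were lower too, with sums of 479 and 389 CPM. The part of these other cell types in the values below was not tested.

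All 7 miRNAs were detected, meaning at least 10 counts in each library, a level reached by 337 of the 1973 genes (17.1%). The set summed to 15967 ± 843 CPM, or 1.60% ± 0.0843 of the gene reads (SD, n = 2), of which Mir22 alone gave 82.1% ± 1.13. The other 6 together summed to 2872 ± 332 CPM. The median of the 7 mean levels was 334.8 CPM, beside 104 CPM over all detected genes, and 6 of the 7 exceeded 100 CPM, as did 170 of the 337 detected genes (50.4%). From high to low the order was Mir22, Mir101b, Mir210, Mir328, Mir132, Mir101a and Mir212. This order held in both libraries, and for each of the 6 neighbouring pairs the values of the 2 libraries did not overlap. In a whole heart, fewer cells that make a miRNA and less of it per cell cannot be told apart.

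**Figure D1:**
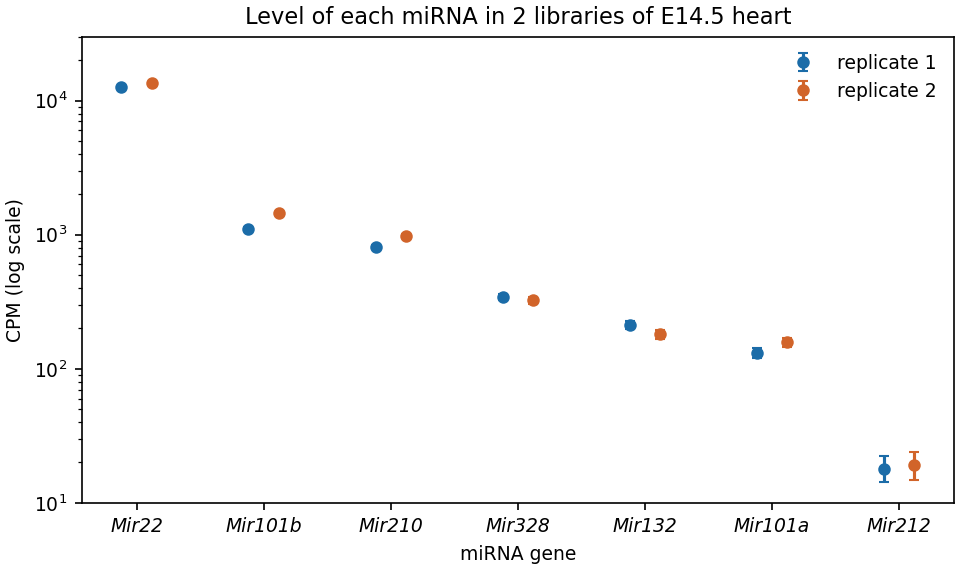
Level of each of the 7 miRNA genes in CPM (log axis) in replicate 1 (blue) and replicate 2 (orange), with exact 95% Poisson intervals for counting error. Mir22 stands at 12734 and 13457 CPM, Mir212 at 18.02 and 19.01 CPM, and the other 5 fall between 131 and 1450 CPM.

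Mir22, linked to muscle growth, was the most abundant of the 7 in both libraries. It had 55104 counts in replicate 1 and 51673 in replicate 2, or 12734 CPM (95% Poisson interval 12628 to 12840) and 13457 CPM (13341 to 13573). Its mean of 13095 ± 511 CPM placed it 19th of 1973 genes, at rank 20 in replicate 1 and 18 in replicate 2. Detected genes next to it in level were Mir17, of the proliferation cluster miR-17-92, at 13435 ± 897 CPM and Mirlet7d, of the let-7 family, at 12845 ± 1963. The ranges of both overlapped that of Mir22. Next outwards, Mir30a at 14990 ± 2038 CPM and Mir652 at 11425 ± 75.3 CPM did not overlap it. Mir22 lay 14.7 ± 1.26 times above Mir210 and 10.4 ± 1.54 times above Mir101b, the second most abundant of the 7. Such ratios compare reads of different sequences, which small RNA libraries do not capture with equal efficiency, and this was not tested here.

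The miRNAs with the AACAGUC seed were far lower. Mir132 had 920 counts in replicate 1 and 695 in replicate 2, or 213 and 181 CPM. Its mean was 196.8 ± 22.4 CPM, at rank 142, beside Mir669l at 200.5 ± 10.96 and Mir199b at 193 ± 21.6. Mir212 had 78 and 73 counts, or 18.02 CPM (14.3 to 22.5) in replicate 1 and 19.01 CPM (14.9 to 23.9) in replicate 2. It was the lowest of the set, at rank 254 with 18.5 ± 0.697 CPM, and its counting intervals overlapped between libraries. Its neighbours in level were Mir128-2 at 18.6 ± 5.35 CPM and Mir8114 at 17.6 ± 0.592.

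Mir132 exceeded Mir212 in both libraries. The ratio of their counts was 11.8 in replicate 1 (exact 95% binomial interval 9.35 to 15.1) and 9.52 in replicate 2 (7.47 to 12.3), with a mean of 10.7 ± 1.61. The intervals overlapped, and a difference in this ratio between libraries was not tested. The hairpins share at most 10 bases in a row, and neither has 18 bases in common with another annotated miRNA hairpin. Mir22, on the same strand of chromosome 11, exceeded Mir132 by 59.9-fold (56.1 to 64.0) in replicate 1 and 74.4-fold (69.0 to 80.2) in replicate 2. For that pair the intervals did not overlap. Mir22 exceeded Mir212 by 706.5-fold (566 to 894) in replicate 1 and 707.8-fold (563 to 903) in replicate 2, with wide intervals set by the few reads of Mir212.

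**Figure D2:**
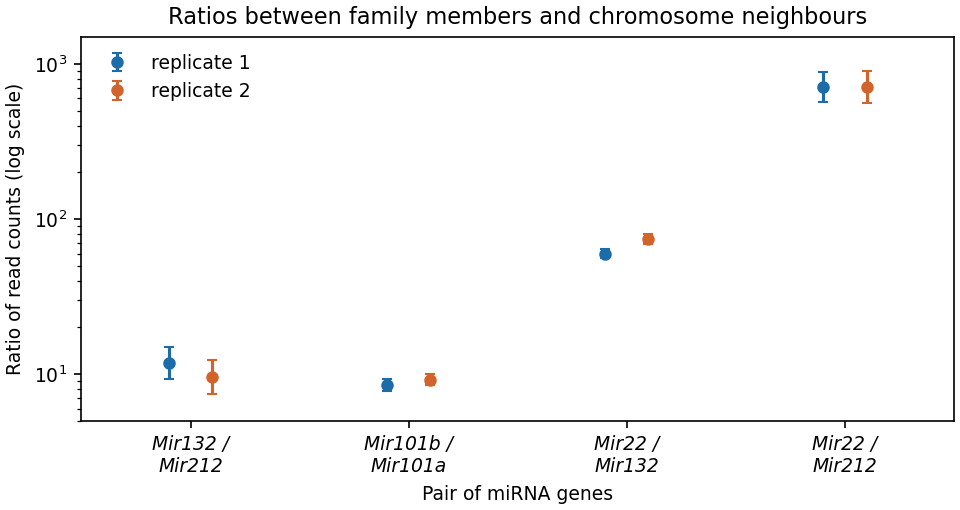
Ratio of read counts (log axis) of 4 pairs of genes within replicate 1 (blue) and replicate 2 (orange), with exact 95% binomial intervals for counting error. Mir132 over Mir212 and Mir101b over Mir101a average 10.7 and 8.84, and their intervals overlap between libraries, as those of Mir22 over Mir132 do not.

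The hypoxia miRNA Mir210 reached an intermediate level. It had 3536 counts in replicate 1 and 3742 in replicate 2, or 817 CPM (790.4 to 844.5) and 974.5 CPM (943.5 to 1006). Its mean of 896 ± 111 CPM put it at rank 81, among Mir181b-2 at 918 ± 198 CPM above it and the Hox cluster miRNA Mir10b at 834 ± 185 below it, and the ranges of both overlapped its own. The Mir210 hairpin was rich in G and C, at 69.1%, as were those of Mir212 at 69.2% and Mir328 at 67.0%. Over the 337 detected genes the median was 50.5%, and 97.0% of them had a lower share than Mir210. Mir22 at 55.8% and Mir132 at 57.6% lay nearer the median, as did Mir101a at 49.4% and Mir101b at 47.4%. These shares are of hairpins, and the mature arms differ. For Mir210 the 3p arm was at 63.64% and the 5p arm at 68.18%, and for Mir212 at 54.55% and 47.83%.

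The rhythm-linked Mir328 varied little between libraries with the plain total of gene reads. Its SD was 4.6% of its mean, beside 3.9% for Mir22 and 3.8% for Mir212. Under median-of-ratios scaling Mir328 had a wider spread, at 335.5 ± 34.0 CPM. It had 1496 counts in replicate 1 and 1244 in replicate 2, or 346 CPM (328 to 364) and 324 CPM (306 to 342.5). Its mean of 334.8 ± 15.4 CPM placed it at rank 116, next to Mir302d at 335.5 ± 10.5 and Mir186 at 334.5 ± 52.8. Although its locus faces an exon of Elmo3, it had 0 counts on the opposite strand in both libraries. So had the other 6 genes, while 28 of the 337 detected genes had reads there.

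**Figure D3:**
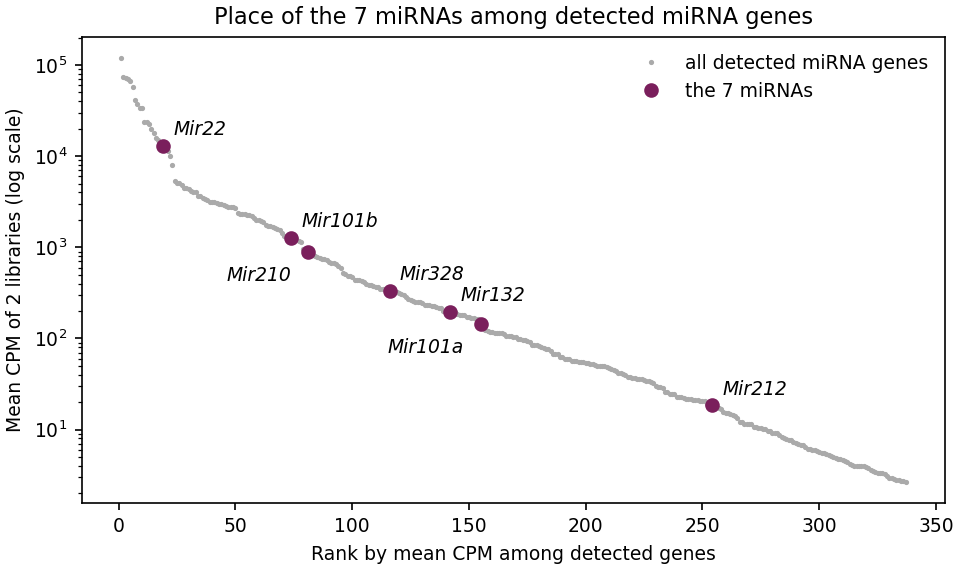
Mean CPM of the 2 libraries (log axis) for the 337 detected miRNA genes (grey), ordered by rank, with the 7 miRNAs in purple. Mir22 sits at rank 19, Mir101b and Mir210 at 74 and 81, Mir328, Mir132 and Mir101a at 116, 142 and 155, and Mir212 at 254.

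Of the reads assigned to the genes of the antifibrotic miR-101, most were counted on Mir101b. Mir101b had 4812 counts in replicate 1 and 5569 in replicate 2, or 1112 CPM (1081 to 1144) and 1450 CPM (1412 to 1489). With a mean of 1281 ± 239 CPM at rank 74 it had the widest spread of the 7 relative to its mean, 18.7%, with the plain total. Under median-of-ratios scaling Mir132, at 197.6 ± 33.3 CPM, had a wider relative spread than Mir101b, at 1275.5 ± 168. Mir101a had 568 and 605 counts, or 131 CPM (121 to 142.5) in replicate 1 and 158 CPM (145 to 171) in replicate 2, with a mean of 144 ± 18.6 CPM at rank 155. Mir101b exceeded Mir101a by 8.47-fold in replicate 1 (7.77 to 9.26) and 9.21-fold in replicate 2 (8.46 to 10.03), and these intervals overlapped.

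The split between the miR-101 genes is uncertain. Their hairpins share a stretch of 20 bases, which takes in the first 15 of the 21 bases of miR-101a-3p and ends before A16G. A full-length read tells the genes apart at that base, whereas a read that ends before it does not. The Mir101a hairpin also shares 19 bases with Mir101c, a further copy not analysed here, whose annotated mature sequence lies wholly within miR-101a-3p. The Mir101b hairpin shares at most 14 bases in a row with Mir101c, so the loss of reads can differ between the genes. Complete miR-101a-3p was found in no other GENCODE transcript than that of its host E130102H24Rik. How many miR-101 reads were set aside as mapping to several places was not tested. Of the 7 genes only the miR-101 pair shared 18 or more bases with another hairpin, as did 94 of the 337 detected genes (27.9%). Mir328, which has no mature sequence here to check, shared 17 bases with Mir6395. The genome outside annotated transcripts was not searched.

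Differences between the libraries were modest for all 7. Mir101b had the largest ratio of replicate 2 to replicate 1, 1.30 (exact 95% binomial interval 1.26 to 1.36, counting error only), followed by Mir101a at 1.20 (1.07 to 1.35) and Mir210 at 1.19 (1.14 to 1.25). Mir22 at 1.06 (1.04 to 1.07) and Mir212 at 1.06 (0.756 to 1.47) were nearly level, Mir328 was at 0.937 (0.869 to 1.01) and Mir132 at 0.851 (0.770 to 0.941). With the plain total, the intervals of Mir328 and Mir212 included 1. The ratio of Mir328 was 0.896 under trimmed-mean scaling and 0.866 under median-of-ratios scaling. Intervals were not computed under those scalings.

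None of the 7 differed by 1.5-fold or more. Of the 337 detected genes, 10.7% were at least 1.5-fold higher and 2.08% at least 1.5-fold lower in replicate 2. Most detected genes thus also stayed within 1.5-fold, so this does not set the 7 apart. The median log2 ratio was 0.08 over the 7 and 0.08 over all detected genes, with a pseudocount of 1 CPM. The median size of that ratio, without its sign, was 0.23 over the 7, beside 0.22 over all detected genes. The small differences depend in part on the scaling. Under median-of-ratios scaling, which moved the median log2 ratio of all detected genes by -0.11, the ratio of replicate 2 to replicate 1 was 0.977 for Mir22 and 0.975 for Mir212, so that both were slightly lower in replicate 2. Mir101b, Mir101a and Mir210 were higher and Mir328 and Mir132 lower in replicate 2 under this scaling, under trimmed-mean scaling (TMM) and with the plain total.

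**Figure D4:**
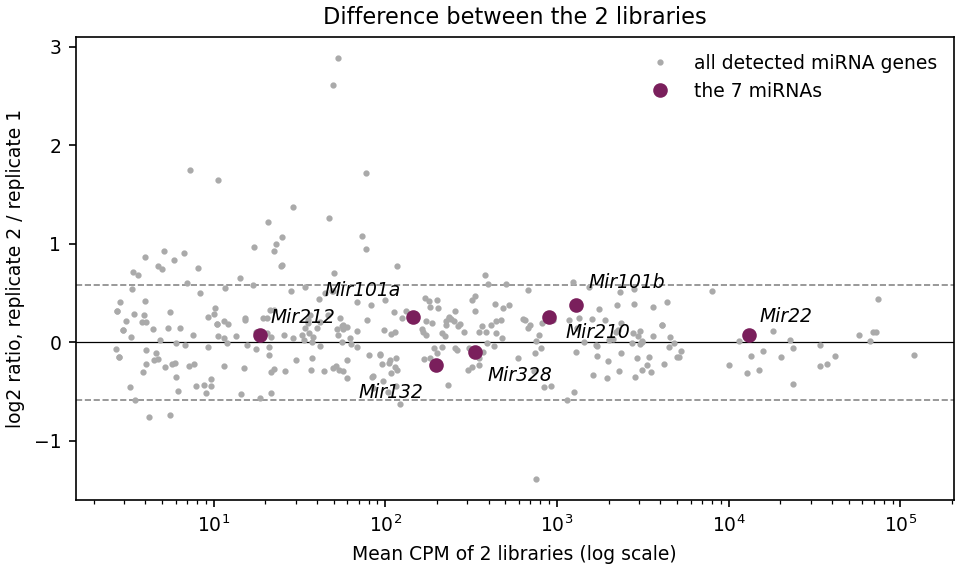
Log2 ratio of CPM in replicate 2 to replicate 1 (pseudocount of 1 CPM) against mean CPM (log axis) for the 337 detected miRNA genes (grey) and the 7 miRNAs (purple), with dashed lines at 1.5-fold. All 7 lie between the dashed lines, from -0.23 for Mir132 to 0.38 for Mir101b.

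The 7 were set beside other miRNAs of the same fields. Of 38 measured miRNAs with published links to heart muscle growth, rhythm or fibrosis, 31 were detected, with a median of 81.4 CPM over the 38 and 2 at 0 counts. The highest were Mir208b, hosted by the beta myosin heavy chain gene, Mir26b at 33998 ± 382 CPM and Mir21a, the miRNA most tied to fibrosis, at 23749 ± 622. Of the 38, 4 lay above Mir22 in mean level and 9 above Mir210, and 22 share at least 18 bases with another hairpin, so that their levels can be too low. All 27 measured miRNAs of a list linked to low oxygen were detected, with a median of 381 CPM, and 16 of them share at least 18 bases with another hairpin, so that their levels, too, can be too low. Mir322, whose human counterpart is raised by hypoxia in endothelium, led that list at 69474 ± 3574 CPM, followed by Mir26b and Mir21a, and 12 of the 27 lay above Mir210. The lists have 11 genes in common, 29.0% of the first and 40.7% of the second.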

How the data were processed

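Small RNA was sequenced from hearts of mouse embryos (2 libraries, 1 group). The authors deposited 1 table per library of whole-number read counts per miRNA gene, both strands together and each strand alone. Per the file headers and the descriptions deposited with them, the counts refer to mm10 and GENCODE M4. Aligner and counter: not given in the sources used here. Counts of column 3, one strand alone, were used, holding 95.3% and 95.4% of gene reads. Lines that name no gene, 46.9% and 47.2% of all reads, stayed out of totals. Symbols came from GENCODE M21, which named 1894 of 1973 identifiers. The identifier of Mir132 has version 1 in the tables and 2 in M21, so its hairpin ends may differ.

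CPM, its mean and SD over the 2 libraries, exact Poisson intervals of counts and exact binomial intervals of ratios were computed. The intervals cover counting error only. With 1 group there was no contrast to test. A count of 3 corresponds to 0.693 CPM in replicate 1 and 0.781 in replicate 2. Hairpins were compared on both strands using GENCODE M21 transcripts. Interval code was tested on simulated data. The members and lists were chosen with earlier results of these data known. The rule for named genes took the 7 miRNAs, the detected genes next to each in mean level, sharers of a seed and the 3 highest of each list. Only the nearest neighbours are named for most. Mir1a-1, Mir133a-1 and Mir133a-2 were named outside this rule. Mir101c and the 1.5-fold limit between libraries were chosen after the data were seen. Alternatives were the unstranded column, TMM (edgeR 4.0.16) and median-of-ratios (DESeq2 1.42.0) scaling in R 4.3.3, other totals, pseudocounts and count minimums, and each replicate left out. Python 3.11.15, numpy 2.4.6, pandas 2.3.3, scipy 1.17.1 and matplotlib 3.10.9 were used.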

Additional observations from a re-analysis of the deposited data

How the results depend on the processing

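With all reads as the total, the summed level of the 7 miRNAs was 8455 CPM, with Mir22 at 6935 CPM, Mir101b at 678, Mir210 at 474, Mir328 at 177, Mir132 at 104, Mir101a at 76.5 and Mir212 at 9.81. Without the most abundant gene in the total, the sum was 18133 CPM, with Mir22 at 14873, Mir210 at 1017, Mir328 at 380.4, Mir132 at 224, Mir101a at 164 and Mir212 at 21.03. With the unstranded column Mir22 was at 12487 CPM, Mir328 at 319 and Mir212 at 17.7. These changes follow from the size of the total, which is the same for all genes of a library. TMM and median-of-ratios scaling moved no mean level by more than the SD between libraries. Both shift the libraries in opposite directions around the same centre, so a mean could hardly move and this says nothing on stability. Under median-of-ratios scaling the median log2 ratio of replicate 2 to replicate 1 over the 7 was -0.034, and under TMM scaling it was 0.014, against 0.080 with the plain total. The count of the 7 at least 1.5-fold apart between libraries was 0 in both directions under TMM and median-of-ratios scaling, an alternative added after the data were seen. All 7 were detected at minimums of 5 and 30 counts. Without the filter on low counts the median log2 ratio over all genes was 0. It had to be, since 1285 of the 1973 genes had 0 counts in both libraries. Of 54 values recomputed with both libraries, 34 stayed within their error. That error was the SD between libraries for levels and ratios of genes, and for counts a change of at most 1.5-fold. For the median log2 ratio it was the counting interval of the gene at the median. Some of these values could not move or hardly could, among them the unfiltered median and the mean levels under TMM and median-of-ratios scaling. The 7 had 0 counts on the opposite strand, so the unstranded column leaves their ratios and their detection unchanged. A minimum of 5 counts cannot lose a gene that has 10. Leaving out a replicate gives the value of the other library, and with 2 libraries this cannot differ from the mean by more than their SD, so it says nothing on stability. Depth limits Mir212 most, with 78 and 73 counts. The 2 libraries of 1 group allow no test.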
